A study of Mus musculus with 6 samples.

Results

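Genomic imprinting is the expression of a gene from only the maternal or only the paternal copy, set by DNA methylation that is laid down in the germ line. Many imprinted genes act on growth, the paternally expressed ones often as promoters of growth and the maternally expressed ones often as brakes, and most are expressed at higher levels in the fetus than after birth. In skeletal muscle H19 and Igf2 are known for their expression in myoblasts and regenerating fibres, and Dlk1 for its part in muscle growth. The levels of 10 imprinted growth genes and noncoding RNAs chosen by name, H19, Igf2, Meg3, Rian, Mirg, Dlk1, Peg3, Cdkn1c, Grb10 and Plagl1, were compared in gastrocnemius muscle of young and aged mice. A probe belonged to a gene when its RefSeq accession, or the gene name in its place, gave that gene. Of the 10 genes 9 had a probe, 21 probes in all among 55681 probes that were not controls. No probe matched Rian by this rule, so it has no values. All 9 genes with a probe passed the filter on dim probes and were among the 20900 genes tested.

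The mice were male C57BL/6J animals with no treatment in the labels, 3 young mice aged 13 weeks and 3 aged mice aged 26 months. Total RNA of the whole gastrocnemius, a mixed and mostly fast muscle of the calf, was labelled with Cy3 and hybridized to single-colour Agilent arrays, 1 per mouse. Values are the log2 of the spot intensity minus the 75th percentile of that array, so that 0 is the level of a probe brighter than 75% of the others on the same array. Levels of different probes depend on the probe sequence and were not compared with each other. The marker sums further below add the levels of different probes, so the brightest probes weigh most in them. All 6 muscle fibre markers examined (Acta1, Ckm, Myh4, Myh1, Myh2 and Tnnt3) were well above background on every array, with values between 8.40 and 10.12. The muscle holds several cell types, so fewer cells of a type and less RNA per cell cannot be told apart in these values.

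The sequences bear on what these RNAs carry. According to RefSeq (GRCm38.p6), 5 of the 10 genes contain the coordinates of 32 mature microRNAs with 31 different seeds. Mirg contained 19 of them, Rian 6, Meg3 3, H19 2 and Igf2 2. The arrays measured the long RNAs and not the mature microRNAs. Those below are shown because they lie within the genes whose values are described next, and because miR-453 and miR-496a-5p within Mirg are the only pair that shares a seed. The capitals mark the seed, bases 2 to 8 from the 5′ end.
mmu-miR-675-5p (H19): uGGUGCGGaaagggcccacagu
mmu-miR-675-3p (H19): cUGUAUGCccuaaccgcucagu
mmu-miR-483-5p (Igf2): aAGACGGGagaagagaagggag
mmu-miR-483-3p (Igf2): uCACUCCUccccucccgucuu
mmu-miR-770-5p (Meg3): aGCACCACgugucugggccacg
mmu-miR-770-3p (Meg3): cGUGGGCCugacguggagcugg
mmu-miR-453 (Mirg): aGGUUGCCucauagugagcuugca
mmu-miR-496a-5p (Mirg): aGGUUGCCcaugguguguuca
mmu-miR-410-3p (Mirg): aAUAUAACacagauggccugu

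Imprinted expression rests on methylation of CpG, a cytosine followed by a guanine. The 250 bases before an annotated start were therefore searched for the letters CG, which read the same on both strands. The RefSeq table gave 13 starts for 8 of the 10 genes, and it listed none for H19 and Cdkn1c. The promoters of Plagl1, Peg3 and Meg3 are printed in the direction of transcription because these were the genes with the lowest p-values, and the capitals mark each CG. Methylation was not measured, and a count of letters says nothing of which copy is used.
Plagl1, chr10:13090582-13090831, plus strand: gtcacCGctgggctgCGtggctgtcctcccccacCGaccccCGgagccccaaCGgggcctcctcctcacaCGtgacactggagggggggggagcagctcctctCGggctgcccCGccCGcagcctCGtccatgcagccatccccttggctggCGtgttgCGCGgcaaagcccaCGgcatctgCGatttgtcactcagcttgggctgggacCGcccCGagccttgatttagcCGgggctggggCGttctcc
Peg3, chr7:6730420-6730669, minus strand: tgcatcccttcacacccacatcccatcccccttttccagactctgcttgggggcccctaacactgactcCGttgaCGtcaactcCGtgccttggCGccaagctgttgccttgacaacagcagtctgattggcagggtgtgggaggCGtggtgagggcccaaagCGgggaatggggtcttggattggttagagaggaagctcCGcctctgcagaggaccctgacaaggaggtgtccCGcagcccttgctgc
Meg3, chr12:109540746-109540995, plus strand: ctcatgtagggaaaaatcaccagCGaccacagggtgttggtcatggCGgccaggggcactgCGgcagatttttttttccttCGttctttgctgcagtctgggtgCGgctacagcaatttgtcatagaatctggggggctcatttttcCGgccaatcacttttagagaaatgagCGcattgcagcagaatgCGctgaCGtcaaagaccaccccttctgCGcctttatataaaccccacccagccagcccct
The Plagl1 promoter held 19 CG, more than 80.3% of the 32851 promoters in the table, whose median was 6. The Peg3 promoter held 8 CG, more than 57.0% of promoters. The first Meg3 start held 10 CG, more than 62.2% of promoters, and the second Meg3 start held 0. The most CG among these genes, 40, lay before one of the 2 starts of Grb10, and the 4 starts of Igf2 ranged from 1 to 22.

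None of the 9 genes differed between aged and young mice past the threshold, an adjusted p under 0.05 in limma with Benjamini-Hochberg adjustment over all 20900 genes, which 0.254% of all genes passed (0.196% higher and 0.0574% lower in aged mice). Plagl1, Peg3 and Meg3 had an unadjusted limma p under 0.05, all with lower values in aged mice. That was 3 of 9 genes, beside 8.38% of all genes with an unadjusted p under 0.05 and lower values. The values of aged mice were lower on average for 7 genes and higher for H19 and Igf2, and the median log2 difference over the 9 was -0.28. That median was -0.53 without young mouse 2, -0.59 without aged mouse 2 and -0.62 within row 1 of the slide, which held the 3 young mice and aged mouse 1. It was -0.27 without young mouse 1, and it ran from -0.62 to -0.25 over the 19 alternatives described below. Of all genes tested 56.9% were lower, with a median of -0.06. The groups did not overlap for Plagl1 and Meg3, with aged mice below, as for 13.9% of all genes, and for none of the 9 did they separate with aged mice above, as for 7.92% of all genes. With 3 mice per group the smallest 2-sided exact permutation p is 0.1, so that single genes rest on the limma fit.

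**Figure D1:**
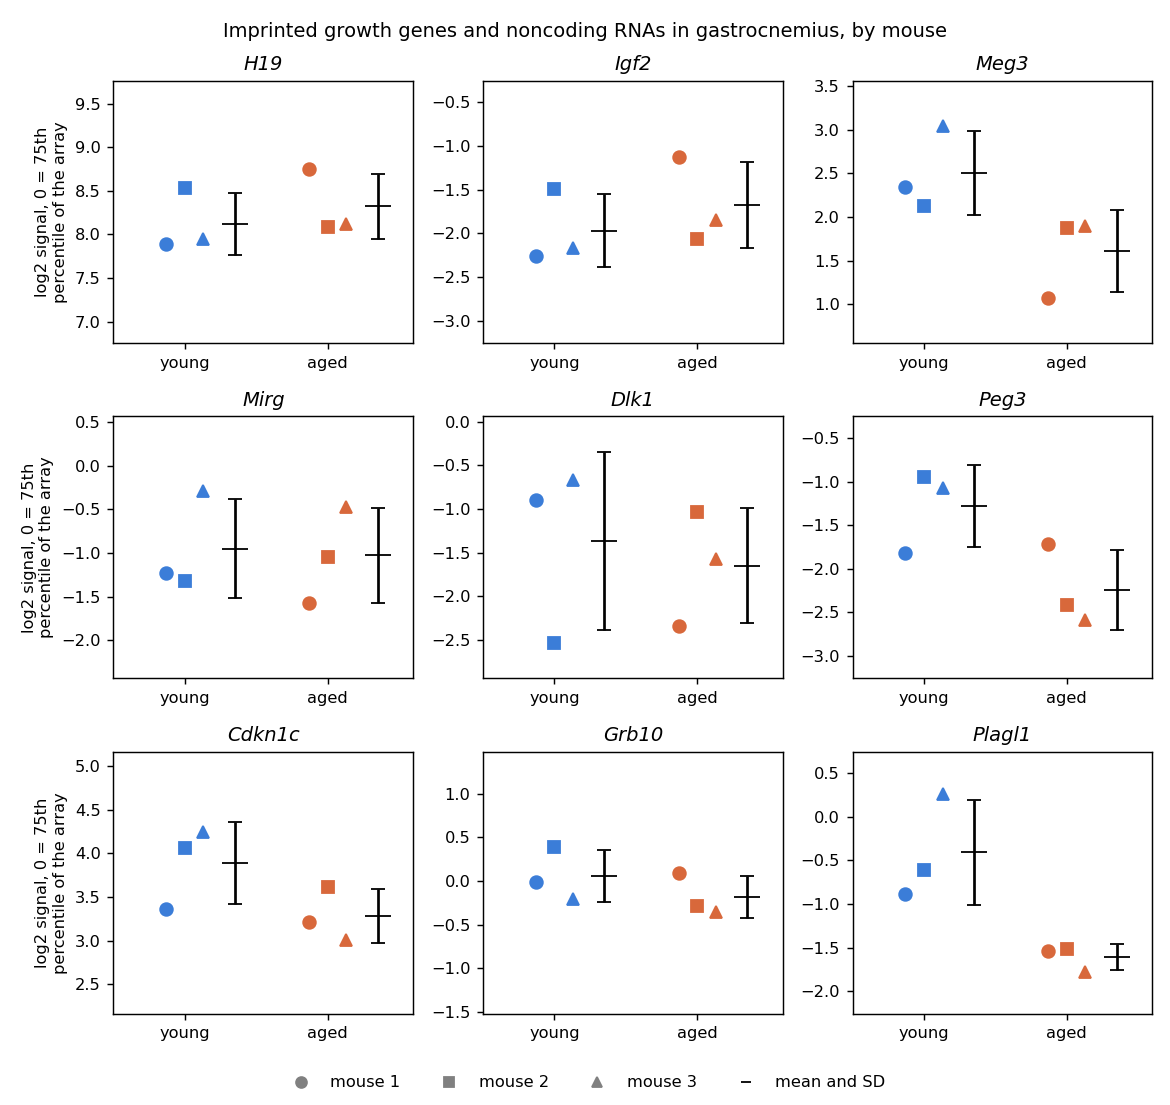
Log2 signal of the probe that represents each gene (vertical axis, 0 is the 75th percentile of the array, every panel spans the same range) in 3 young and 3 aged mice, with the mean and SD of each group. The aged mice lie below all young mice for Plagl1 and Meg3, and the groups overlap for the other 7 genes.

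Plagl1 and Peg3 encode zinc finger transcription factors expressed from the paternal copy. Plagl1 is known as a regulator of other imprinted genes and of cell cycle arrest. Young mice 1 to 3 had log2 signals of -0.88, -0.61 and 0.27, and aged mice 1 to 3 had signals of -1.54, -1.51 and -1.78. All aged mice lay below all young mice, and the young mice were spread more widely than the aged. The means were -0.41 ± 0.60 and -1.61 ± 0.15 (SD, n = 3 each), a log2 difference of -1.20 (SE 0.31), or 0.435 of the young level with a 95% confidence interval of 0.263 to 0.721. The limma p was 0.00603, and the adjusted p of 0.183 missed the threshold. Plagl1 had 4 probes, all for NM_009538 and all lower in aged mice on average. A second probe gave a log2 difference of -1.26, with no overlap of the groups. The other 2 gave -0.34, without overlap, and -0.25, with overlap, the last from a probe well above background on 5 of the 6 arrays. The 4 probes thus had the same direction and differed in size.

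Peg3 is known for roles in apoptosis signalling and in muscle stem cells. Young mice 1 to 3 had log2 signals of -1.82, -0.95 and -1.07, and aged mice 1 to 3 had signals of -1.72, -2.41 and -2.59. Young mouse 1 lay below aged mouse 1, so the groups overlapped. The log2 difference was -0.96 (SE 0.32), or 0.515 of the young level with an interval of 0.302 to 0.876, at an unadjusted limma p of 0.0215 and an adjusted p of 0.273. The second Peg3 probe was not well above background on any array. The arrays lay in 2 rows of the slide, with the 3 young mice and aged mouse 1 in row 1 and aged mice 2 and 3 in row 2. Within row 1 the log2 difference was -0.44 for Peg3 and -1.13 for Plagl1.

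Dlk1, Meg3, Rian and Mirg lie in 1 imprinted domain of chromosome 12. Dlk1, a transmembrane protein related to the Notch ligands, is expressed from the paternal copy, and the 3 noncoding RNAs from the maternal copy. Young mice 1 to 3 had Meg3 log2 signals of 2.34, 2.13 and 3.04, and aged mice 1 to 3 had signals of 1.07, 1.87 and 1.90. All aged mice lay below all young mice, by a margin between aged mouse 3 and young mouse 2 that was small beside the spread within each group. The means were 2.50 ± 0.48 and 1.61 ± 0.47 (SD, n = 3 each), a log2 difference of -0.89 (SE 0.33), or 0.540 of the young level with an interval of 0.315 to 0.925. The unadjusted limma p was 0.0305 and the adjusted p was 0.299. A second Meg3 probe gave -0.50 with overlapping groups, at an unadjusted limma p of 0.174, and another, for NR_003633, was not well above background on any array. Within row 1 of the slide, the log2 difference of the first probe was -1.43.

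Mirg, the host of a cluster of microRNAs, had log2 signals of -1.23, -1.32 and -0.29 in young mice and -1.57, -1.04 and -0.47 in aged mice, in the order of mice 1 to 3. The groups covered much the same range, with a log2 difference of -0.08 (SE 0.38) and a ratio of aged to young of 0.948 with an interval of 0.510 to 1.76. Dlk1 had log2 signals of -0.90, -2.53 and -0.66 in young mice and -2.34, -1.03 and -1.57 in aged mice. It was low in young mouse 2 and aged mouse 1 and varied more within groups than between them, with an SD of 1.02 in young mice, 0.66 in aged mice and a log2 difference of -0.28 (SE 0.55). The interval of its ratio ran from 0.330 to 2.04. The signs for Mirg and Dlk1 rested on single mice: without young mouse 3 the log2 difference was 0.25 for Mirg and 0.07 for Dlk1, and without aged mouse 1 it was 0.19 and 0.06. The other genes of this domain looked at, Rtl1, Dio3 and 6430411K18Rik, were too dim to be tested.

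H19, a maternally expressed noncoding RNA, and Igf2, the paternally expressed growth factor whose gene lies beside it on chromosome 7, share enhancers. H19 had log2 signals of 7.89, 8.53 and 7.94 in the young mice, listed from 1 to 3, and of 8.75, 8.09 and 8.12 in the aged mice. The groups overlapped, with means of 8.12 ± 0.36 and 8.32 ± 0.37 (SD, n = 3 each). The log2 difference was 0.20 (SE 0.27), a ratio of aged to young of 1.15 with an interval of 0.741 to 1.78, at an adjusted limma p of 0.756. All 6 probes of H19 were higher in aged mice on average, by 0.20 to 0.70, and the groups overlapped for each. Igf2, with 1 probe, had log2 signals of -2.26, -1.49 and -2.17 in young mice and -1.12, -2.07 and -1.85 in aged mice. Its log2 difference was 0.29 (SE 0.32), a ratio of 1.23 with an interval of 0.726 to 2.07, at an adjusted limma p of 0.693. Both genes were highest in aged mouse 1 and next highest in young mouse 2. Without aged mouse 1 the log2 difference was -0.01 for H19 and 0.01 for Igf2, and within row 1, where it is the only aged mouse, it was 0.63 and 0.85.

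The order of the 6 mice was the same for Igf2 and for the probe that represents H19. Over the 6 mice Pearson's r was 0.989 (exact permutation p = 0.00139, adjusted 0.00556) and Spearman's rho was 1 (exact permutation p = 0.00278, adjusted 0.0111). This was 1 of 4 pairs within the domains of chromosomes 7 and 12 that were compared. The pairs were chosen after the values were seen, so their p-values describe the pairs and do not test them. Without young mouse 2 and aged mouse 1, the mice farthest from the median, r was 0.915 over 4 mice. The deviations from the group means also had an r of 0.989. The other 5 H19 probes had an r of 0.800 to 0.906 with Igf2. Their order differed from that of Igf2, with young mouse 3 lowest in each, where Igf2 was lowest in young mouse 1. High correlations were not particular to this pair. Over the same 6 mice 0.579% of the other 20899 genes had an r above 0.9 with H19, where Igf2 ranked after Psma5 (0.990) and before Zfyve1 (0.981). For Igf2, Psma5 (0.998) and Tymp (0.992) ranked ahead of H19. Across all 20900 genes the deviations of young mouse 2 and aged mouse 1 from their group means had an r of 0.35, the highest of the 9 pairs of a young and an aged mouse. Its part in the relation was not tested, and row 2 of the slide, with 2 arrays, was too small for an r of its own.

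**Figure D2:**
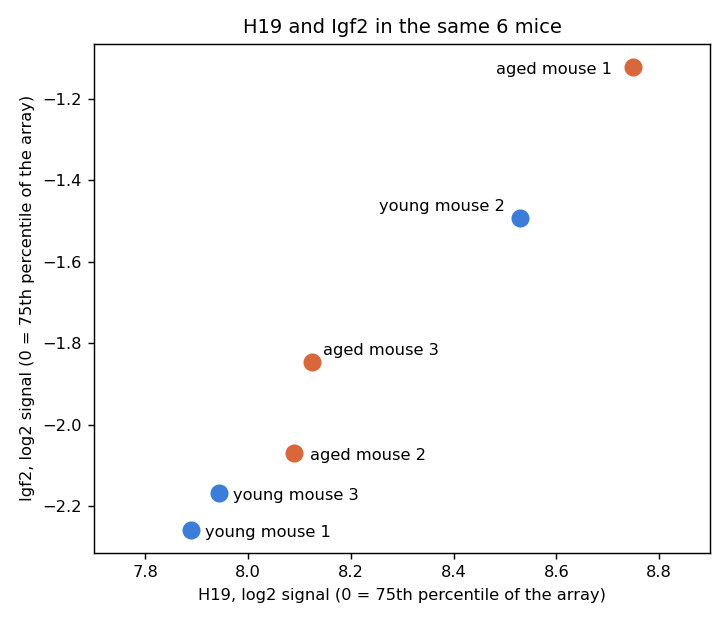
Log2 signal of H19 (horizontal axis) and Igf2 (vertical axis), both with 0 at the 75th percentile of the array, in each of the 6 mice. H19 is shown by the probe that represents it. The points follow the same order on both axes, with aged mouse 1 and young mouse 2 above the other 4 mice.

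The 3 pairs on chromosome 12 had lower correlations, and their p-values too describe the pairs and do not test them. Dlk1 and Meg3 had an r of 0.662 (exact permutation p = 0.157, adjusted 0.197) and a rho of 0.6 (exact permutation p = 0.242, adjusted 0.297), and r was 0.784 without young mouse 2 and aged mouse 1. Meg3 and Mirg had an r of 0.672 (exact permutation p = 0.143, adjusted 0.197) and a rho of 0.543 (exact permutation p = 0.297, adjusted 0.297), and r was -0.651 without young mouse 3 and aged mouse 1. Dlk1 and Mirg had an r of 0.613 (exact permutation p = 0.197, adjusted 0.197) and a rho of 0.714 (exact permutation p = 0.136, adjusted 0.272), and r was -0.09 without young mouse 2 and aged mouse 1. The last 2 relations thus changed sign without those mice. The deviations from the group means had an r of 0.931 for Meg3 and Mirg, 0.796 for Dlk1 and Meg3, and 0.61 for Dlk1 and Mirg.

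Cdkn1c and Grb10 are maternally expressed brakes on growth. Cdkn1c is an inhibitor of cyclin-dependent kinases, and Grb10 is an adaptor that binds and dampens the insulin and IGF receptors, with paternal expression in neurons. Cdkn1c had log2 signals of 3.36, 4.06 and 4.25 in the young mice, listed from 1 to 3, and of 3.22, 3.61 and 3.01 in the aged mice. Young mouse 1 lay within the range of the aged mice. The log2 difference was -0.61 (SE 0.28), or 0.654 of the young level with an interval of 0.410 to 1.04, at an unadjusted limma p of 0.0692 and an adjusted p of 0.384. Grb10 had log2 signals of -0.01, 0.39 and -0.21 in young mice and 0.09, -0.29 and -0.35 in aged mice. The groups overlapped, with a log2 difference of -0.24 (SE 0.22) and a ratio of 0.847 with an interval of 0.590 to 1.22. Within row 1 of the slide the sign turned, to 0.04.

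**Figure D3:**
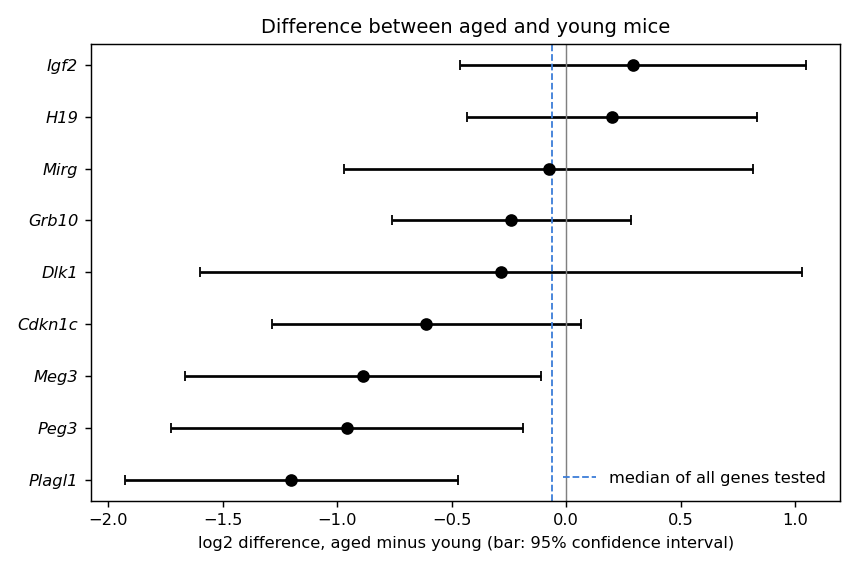
Log2 difference between aged and young mice (horizontal axis, aged minus young) for each of the 9 genes, with its 95% confidence interval, and the median of all genes tested as a dashed line at -0.06. The intervals of Plagl1, Peg3 and Meg3 lie below 0, before adjustment for the number of genes, and those of the other 6 genes include 0.

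**Figure D4:**
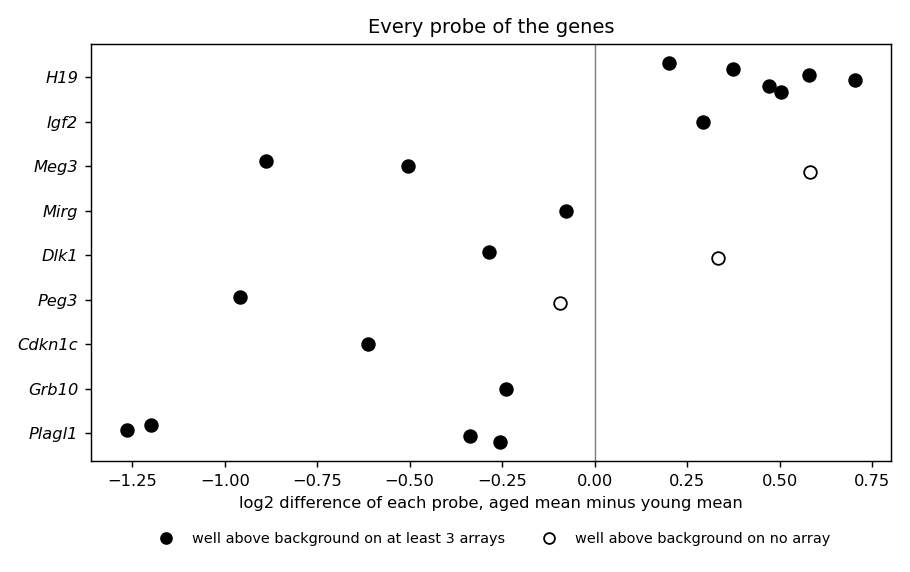
Log2 difference of the group means for every probe of the 9 genes (horizontal axis), filled where the probe was well above background on at least 3 arrays and open where it was so on no array. The 6 H19 probes lie above 0 and the 4 Plagl1 probes below 0, and the open probes of Meg3 and Dlk1 lie on the other side of 0 from the filled ones.

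Other imprinted genes were counted for comparison. Of 57 listed, 37 could be tested, 19 were too dim and 1 had no probe. None passed the adjusted threshold in limma, and 4 were higher and 7 lower at an unadjusted p under 0.05, beside 6.07% and 8.38% of all genes. Their median log2 difference was -0.11. Among 8 genes known to move together with these in mouse development, the imprinted gene network, the median was -0.35. One of these, the collagen-binding proteoglycan decorin (Dcn), had an unadjusted p under 0.05, with a log2 difference of -0.85 (SE 0.34, adjusted p = 0.33 in limma). Its values were 8.43, 8.36 and 8.48 in young mice and 8.28, 7.56 and 6.87 in aged mice. Gatm, an enzyme of creatine synthesis, was at -0.88 (adjusted p = 0.356 in limma), with no overlap of the groups and 2 of 3 aged arrays well above background.

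The other paternally expressed genes, 11 tested of 23, had a median of 0.04, with 3 higher and 2 lower at an unadjusted p under 0.05. The lower ones were Peg12 at -0.86 (adjusted p = 0.136 in limma), with young mice at -1.31, -1.58 and -1.13 and aged mice at -2.22, -2.14 and -2.24, and Snrpn, a splicing protein, at -0.62. The higher ones were Ddc, the aromatic amino acid decarboxylase, at 1.62, Impact, a regulator of translation under stress, at 0.42, and the noncoding RNA Peg13 at 0.39. The groups overlapped for Ddc and not for the other 4. The other maternally expressed genes, 18 tested of 26, had a median of -0.13, with 1 higher and 4 lower. Ppp1r9a, a scaffold that binds actin and a phosphatase, was at -0.96 (adjusted p = 0.141 in limma), with young mice at -0.64, -0.94 and -0.39 and aged mice at -1.75, -1.42 and -1.69. The others lower were Asb4, a ubiquitin ligase subunit, at -0.55, Ano1, a chloride channel, at -0.63, and Calcr, the calcitonin receptor, at -1.19, and the higher one was Osbpl5, a lipid transfer protein, at 0.50. Calcr was well above background on 1 of the 3 aged arrays.

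**Figure D5:**
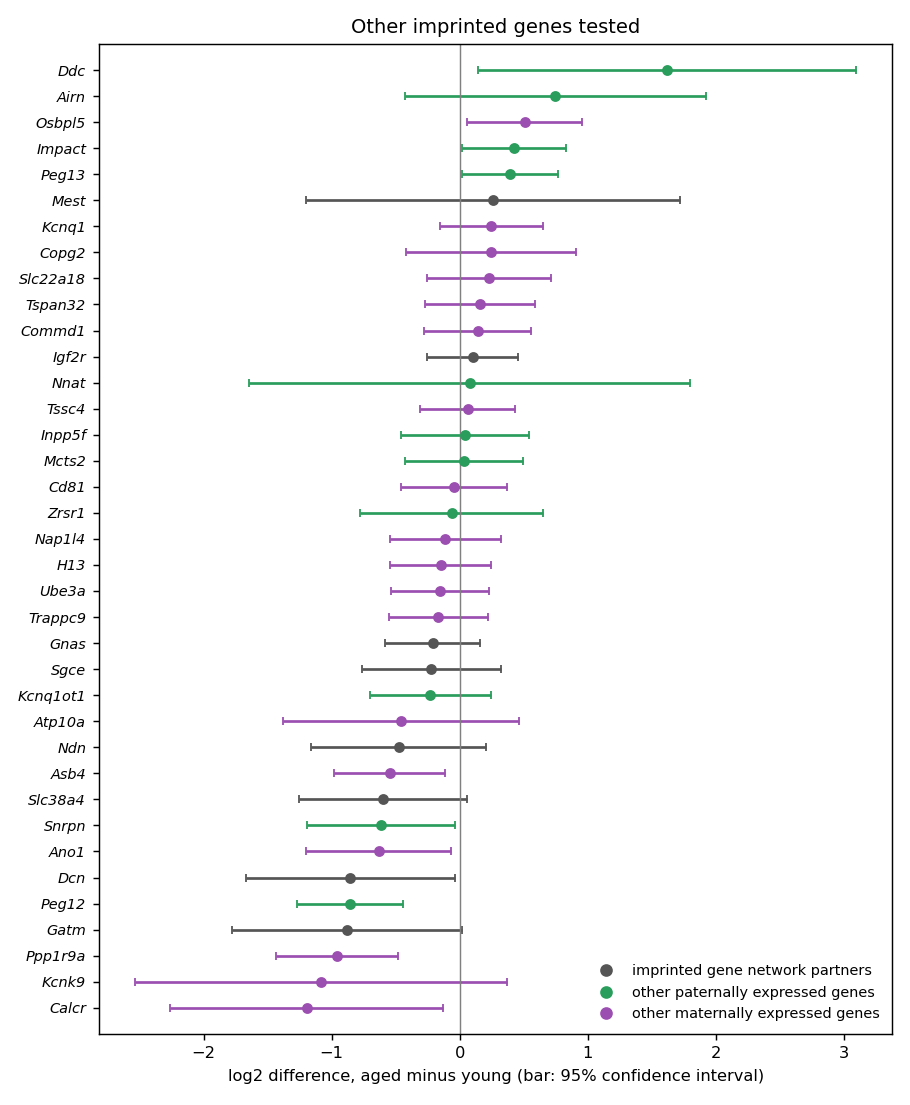
Log2 difference between aged and young mice (horizontal axis, aged minus young) with its 95% confidence interval for the 37 other imprinted genes tested, coloured by list. The differences run from -1.19 for Calcr to 1.62 for Ddc.

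Igf2 acts through the receptors Igf1r and Insr, is cleared by Igf2r, and is held by binding proteins. Igf2r was near its young level, at 0.10 (SE 0.15). Of 14 receptors, signalling proteins, binding proteins and mRNA binders listed, 10 were tested, with a median of -0.20 (-0.40 without aged mouse 2) and with 2 higher and 2 lower at an unadjusted p under 0.05. Igf1r was at -0.45, with young mice at 1.95, 2.12 and 1.92 and aged mice at 1.76, 1.46 and 1.41. Among the binding proteins Igfbp6, which prefers Igf2 as its ligand, was at -0.66 (adjusted p = 0.205 in limma) and Igfbp4 at 1.27 (adjusted p = 0.152 in limma), both without overlap of the groups. Igfbp2 was not well above background on any young array and was at least 2.87-fold higher in aged mice, against the lowest signal called well above background (adjusted p = 0.0803 in limma). The log2 difference was 2.78 with the mean of its probes (adjusted p = 0.0436 in limma). It was 3.27 in the probe that does not represent the gene, tested by itself (adjusted p = 0.0271 in limma). The representing probe passed the filter only through the aged arrays, so its p-value rests on young values at background. The other probe was dimmer, with a lower mean still in young mice, so the p-values that include it rest on such values too.

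Genes related to the 9 in sequence, position or function were looked at beside them. Of 8 paralogs 6 were tested, with a median of 0.48, which was 0.23 without young mouse 1. Cdkn1b, a sister inhibitor of Cdkn1c, had log2 signals of 3.54, 3.61 and 3.69 in young mice and 2.56, 2.75 and 2.15 in aged mice, a log2 difference of -1.13 (adjusted p = 0.103 in limma). Cdkn1a, another inhibitor of this family, was at 1.85 (adjusted p = 0.259 in limma), without overlap of the groups. Grb14, a paralog of Grb10, was at 2.27 with aged mouse 1 within the young range (adjusted p = 0.332 in limma), and without aged mouse 1 it was at 3.37 (adjusted p = 0.0398 in limma). Without that mouse 199 of all genes passed, against 53 with all mice, and Grb14 passed under no other alternative. Of 16 neighbours of their loci 12 were tested, with a median of -0.01 and 1 higher at an unadjusted p under 0.05, Syt8 (0.81), a synaptotagmin. Tnnt3, the fast troponin T beside H19, was at -0.27. All 13 genes of imprint maintenance and erasure were tested, with a median of 0.02. One had an unadjusted p under 0.05, Tet3, which oxidises methylcytosine, at -0.45, and the de novo methyltransferase Dnmt3a was at -0.42 (adjusted p = 0.436 in limma). No gene of these 3 lists passed the adjusted threshold when all mice were used.

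Markers of other cell types were summed in the same mice. Their summed linear levels, each relative to the 75th percentile of the array, did not overlap for the denervation response (4 genes, 10.4 to 12.9 in young and 30.5 to 87.7 in aged mice), endothelium (4 genes, 14.8 to 18.2 and 10.4 to 12.9), erythrocytes (2 of 3 genes tested, 144 to 220 and 51.5 to 109), adipocytes (4 of 5, 135.4 to 148 and 104 to 134.9) or satellite cells (5 of 6, 15.4 to 16.0 and 16.3 to 18.01). They overlapped for fibroblasts (5 genes, 51.8 to 65.2 and 36.5 to 68.9), macrophages (3 of 4, 15.7 to 16.9 and 16.8 to 21.4), Schwann cells (4 genes, 17.4 to 36.1 and 20.0 to 36.5), developing or regenerating fibres (5 genes, 685 to 1005 and 577 to 968) and muscle fibres (6 genes, 3945 to 4794 and 3157 to 4324). Single markers did not always follow the sum. Of the endothelial markers, Cdh5 (-0.79) was below all young mice in every aged mouse, and Tie1 (-0.52), Kdr (-0.36) and Pecam1 (0.52) overlapped. Of the adipocyte markers, the groups did not overlap for Fabp4 (-0.22) alone. Of the erythrocyte markers, they did not overlap for Hba-a1 (-1.20) and did for Alas2 (-1.26). Of the 5 markers of developing or regenerating fibres, Myog (2.47), Myh3 (1.66) and Ncam1 (0.98) were above all young mice in every aged mouse. Actc1 (0.10) and Myh8 (-0.18) overlapped, and these brightest probes make up most of the sum. Of the macrophage markers, Cd68 (1.08) and Adgre1 (0.64) were above all young mice in every aged mouse, and Csf1r (-0.05) overlapped. Of the satellite cell markers, Chodl (-1.27) was below all young mice in every aged mouse, and Sdc4 (0.98), Vcam1 (0.19), Cdh15 (0.10) and the defining marker Pax7 (-0.02) overlapped. The markers Myf5 (satellite cells), Lep (adipocytes) and Cd163 (macrophages) were too dim to be tested. The part of these markers in the values of Plagl1, Peg3 and Meg3 was not tested.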

How the data were processed

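For every array the authors deposited a scanner file from Agilent Feature Extraction. Its intensity column used here is the processed signal, unlogged, which that software had corrected for background and for trends across the array (version 9.5 per the submitters' processing notes, 11.0.1.1 per the file headers). The deposited flags, other columns of 0 and 1, mark spots as well above background, saturated, non-uniform or outliers. The values of the series matrix were identical to it (largest log2 difference 0).

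From 62976 spots per array, controls and 161 to 212 flagged spots were left out, spots of a probe were averaged as log2 values, and these were set relative to the array's own 75th percentile. The 75th percentile signal was 243 to 368, 48.7% to 53.8% of probes were well above background, and 0 spots outside the controls were saturated. The signal over background and the number of arrays limit the precision. Accessions were matched without version to RefSeq transcripts of GRCm38.p6, which named 28331 probes, 10 more were named by gene name, and 27340 kept the identifier of the file. The array was designed on another build, so coordinates are printed only for RefSeq sequences. Probes well above background on at least 3 of 6 arrays were kept, and the brightest unsaturated one represented a gene.

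The test was limma 3.58.1 under R 4.3.3 (lmFit, eBayes, Benjamini-Hochberg over 20900 genes, threshold 0.05, 2-sided), in which 41 genes were higher, 12 lower and 3020 had an unadjusted p under 0.05. The fit was tested on simulated data. The labels number the mice within each group. The study's text names no test for the arrays. The members and lists were chosen with earlier results of these data known. Besides the members, the genes named are those of each list with an unadjusted p under 0.05, and at least the 2 with the lowest p. Psma5, Zfyve1, Tymp, Igf2r, Rtl1, Dio3, 6430411K18Rik and the marker genes were named outside that rule. Alternatives were the background correction (normexp, offset 50, on the median spot signal, since no mean was used here), scaling, filters, probe choice, a mean-variance trend, the row of the slide, the replicate number and leaving out each mouse.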

Additional observations from a re-analysis of the deposited data

How the results depend on the processing

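None of the 9 genes passed the adjusted threshold under any of the 19 alternatives. Plagl1 ranged from -1.44 to -0.76 (adjusted limma p 0.125 to 0.478), Peg3 from -1.23 to -0.44 (0.128 to 0.654) and Meg3 from -1.43 to -0.62 (0.258 to 0.522). The sign turned for Grb10 with the row of the slide as a block (0.036) and, when 1 mouse was left out, for Dlk1 (-0.87 to 0.066), H19 (-0.014 to 0.41) and Mirg (-0.36 to 0.25). The correlation of H19 and Igf2, under alternatives chosen after seeing the data, was lowest with normexp (0.848, exact permutation p = 0.0222), and 0.976 to 0.996 with 1 mouse left out. The causes of these shifts were not tested.

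Over all genes 53 passed, against 8 without a filter, 35 when a probe had to be well above background on 6 of 6 arrays, and 1 to 199 with 1 mouse left out (199 without aged mouse 1, 1 without aged mouse 3, 8 or 9 without each of the others). Same-numbered mice did not deviate together (r -0.0625, -0.271 and 0.0277), so the numbers were not taken to pair them, and with the replicate block 5 genes passed and none of the 9. In the Igf2 receptor and binding list Igfbp2 passed with the mean of probes and with every probe. Its representing probe was not well above background on any young array, and its other probe had a lower mean there. With the paralogs 0 to 1 gene passed with a mouse left out.

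The median of all genes was -0.046 with quantile normalization, -0.21 with median scaling (a shift that moves every gene), -0.028 with the percentile over detected probes, 0.034 without a filter, -0.049 with the mean of probes and -0.086 to -0.032 with a mouse left out. No member turned sign under a scaling alternative. The median of the network partners was -0.50 with median scaling, -0.22 with probes bright on all arrays, -0.45 with the row block and -0.45 to -0.18 with a mouse left out. That of the neighbours was -0.16 with median scaling, -0.21 with the row block and -0.0997 to 0.090 with a mouse left out. For the Igf2 receptor and binding list it was 0.079 with the row block, -0.34 with median scaling and -0.066 with the mean of probes. With a mouse left out that list ran from -0.40 to -0.11. The median of the 9 genes was -0.62 with the row block, -0.43 with median scaling and -0.59 to -0.27 with a mouse left out. That of the paralogs was 0.18 without a filter, 0.22 with the row block and 0.23 to 0.68 with a mouse left out.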
